A study of Rattus norvegicus with 8 samples.

Results

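rno-miR-489 and rno-miR-653 are made from a pair of hairpins that lie side by side within the gene of the calcitonin receptor, Calcr, and their counts were compared in the kidneys of rats given aristolochic acid (AA) and of control rats. AA, found in plants of the genus Aristolochia, damages the kidney and causes tumors there. The members were chosen by name, as every row of the deposited table named miR-489 or miR-653, either arm included, which gave 4 of the 620 rows: rno-miR-489, rno-miR-489*, rno-miR-653 and rno-miR-653*. The pair was put forward with the AA-treated and Control values of these data already known, so the difference between the groups is described here without a p value.

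All 8 animals were male Fisher 344 rats that carried the Big Blue transgene, a bacterial reporter used to score mutations. Gavage began at 6 weeks of age and was given on 5 days of each week, in a volume of 4 ml/kg. The 4 AA-treated rats received 10.0 mg/kg of AA as the sodium salt each time, the 4 Control rats 0.9% sodium chloride alone, and kidneys were taken 1 day after the final dose. The protocol gives 12 weeks of treatment and the labels an age of 18 weeks, whereas the descriptions of the single samples count up from 12 to 15 weeks with the rat's number. Each kidney gave 1 library of small RNA, from a piece of tissue of mixed cell types. Rats of a group are separate animals.

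A miRNA is cut from a hairpin in its primary transcript, and usually 1 arm of the hairpin is loaded into the silencing complex while the other, the star arm, is mostly lost. Bases 2 to 8 of the mature miRNA, the seed, pair with target mRNAs and largely set which mRNAs are repressed. The calcitonin receptor is a G protein-coupled receptor for calcitonin, a hormone that lowers plasma calcium, and in the kidney it is known from distal parts of the nephron. A miRNA within a gene and on its strand can be transcribed together with its host, and miR-489 is known for holding muscle stem cells in quiescence. The role of miR-653 is less well described.

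The RefSeq sequences show how the pair differs, and both hairpins are printed below 5′ to 3′ with the 2 mature arms in capitals. On the GRCr8 build the miR-489 hairpin lies at chr4:32648039-32648144 and the miR-653 hairpin at chr4:32647398-32647494, both on the minus strand, so that miR-489 comes first in the direction of transcription and 544 bases separate the hairpins. The span of Calcr covers both on the same strand. Exon positions were not used here.
Mir489 hairpin: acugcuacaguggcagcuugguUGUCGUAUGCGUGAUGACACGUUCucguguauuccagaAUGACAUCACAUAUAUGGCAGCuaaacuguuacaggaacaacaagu
Mir653 hairpin: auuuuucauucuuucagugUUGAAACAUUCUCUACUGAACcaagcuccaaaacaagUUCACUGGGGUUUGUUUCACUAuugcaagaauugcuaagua

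The 4 mature sequences are shown with the seed, bases 2 to 8, in capitals, to show whether the pair has a seed in common. Targets were not examined, and different seeds do not settle whether targets are shared. The deposited table names these arms in the older way, which does not state 5p or 3p, and holds no sequences. Here miR-489 was taken as the 3p arm and miR-653 as the 5p arm, and the starred rows as the opposite arms.
rno-miR-489 (3p): aUGACAUCacauauauggcagc
rno-miR-489* (5p): uGUCGUAUgcgugaugacacguuc
rno-miR-653 (5p): uUGAAACAuucucuacugaac
rno-miR-653* (3p): uUCACUGGgguuuguuucacua

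With the arms taken this way, the main products came from opposite arms. None of the 4 seeds was shared with another of the 724 rat mature sequences of the RefSeq table. A site paired to the seed of miR-489 reads GAUGUCA and one paired to the seed of miR-653 reads UGUUUCA. Over bases 2 to 7 only, miR-653* matched 1 other sequence, the star arm of miR-181b-1. The mature sequence closest to miR-653 differed from it by 6 edits, and the one closest to miR-489 by 8 edits. Guanine and cytosine made up 33.3% of miR-653 and 40.9% of miR-489. The predicted fold of the miR-489 hairpin had 34 base pairs at -40.4 kcal/mol, and that of the miR-653 hairpin 33 base pairs at -26.8 kcal/mol.

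The miRNA counts of a rat added up to 13412373 at the lowest and 15616670 at the highest. Each count was scaled by the size factor of its library (median of ratios, 0.818 to 1.28), and "normalized counts" refers to the result. No library repeated another. Control rat 4 stood apart from the other Control libraries, with a chi-square per degree of freedom of 1481 to 2156 against each of them, where those differed among themselves by 394 to 607. The AA-treated libraries differed from each other by 626 to 3457, and AA-treated rats 3 and 4 were the farthest apart. Values without both rats numbered 4 are given beside the results they move.

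miR-653 was the more abundant of the pair in every rat. In Control rats 1 to 4, miR-653 had 971, 850.1, 843 and 1653 normalized counts, or 934, 774, 889 and 1353 reads. In AA-treated rats 1 to 4 it had 475, 339, 599 and 475 normalized counts, or 423, 435, 607 and 583 reads. Every AA-treated rat was below every Control rat, and Control rat 4 stood high above the other 3 Control rats. The means were 1079 ± 387 in Control kidneys and 472 ± 106 in AA-treated kidneys (SD, n = 4 each), so that the AA-treated mean was 43.7% of the Control mean. The log2 fold change was -1.19 (standard error 0.27), and without both rats numbered 4 it was -0.91 (standard error 0.21).

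miR-489, the first hairpin of the pair, followed the same direction with more overlap. Its normalized counts in Control rats 1 to 4 were 532, 428, 519 and 869.95. In AA-treated rats 1 to 4 they were 185, 295, 461 and 179.97. AA-treated rat 3 lay above Control rat 2, and the other 3 AA-treated rats lay below all Control rats. The means were 587 ± 194 in Control kidneys and 280.2 ± 131 in AA-treated kidneys (SD, n = 4 each), so that the AA-treated mean was 47.7% of the Control mean. The log2 fold change was -1.07 (standard error 0.33), and it became -1.42 (standard error 0.32) without AA-treated rat 3 and -0.65 (standard error 0.28) without both rats numbered 4.

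**Figure D1:**
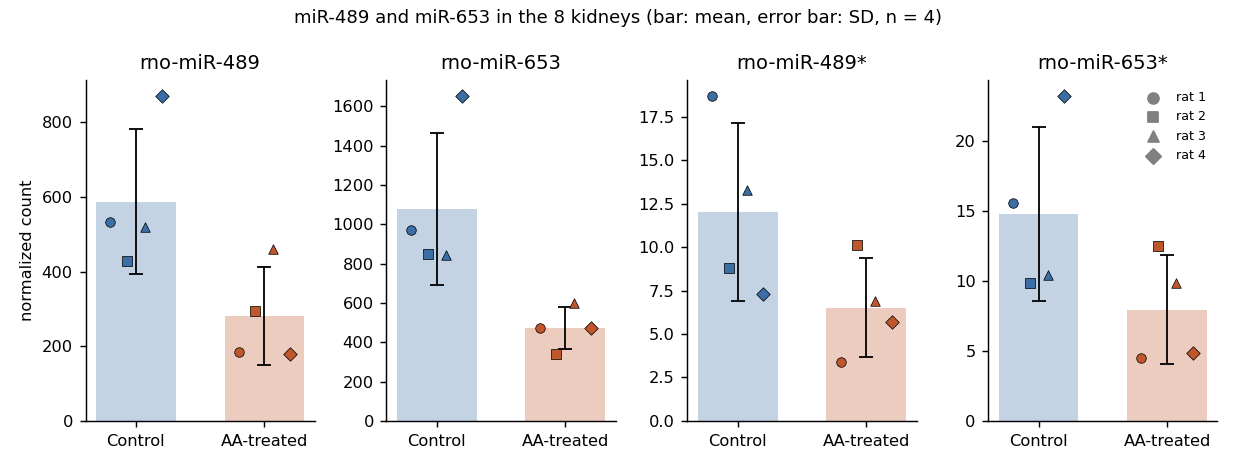
Normalized counts of miR-489, miR-653 and their star arms in each kidney, with each panel on its own linear axis from 0, bars for the group means, error bars for the SD (n = 4) and a marker shape for each rat number. The AA-treated rats of miR-653 lie between 339 and 599, below the Control rats at 843 to 1653, while the groups of the other 3 rows overlap.

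The star arms were rare, and their counts limit what can be said of them. miR-489* had 18, 8, 14 and 6 reads in Control rats 1 to 4 and 3, 13, 7 and 7 reads in AA-treated rats 1 to 4. Its means were 12.0 ± 5.12 and 6.53 ± 2.82 normalized counts (SD, n = 4 each). The fitted log2 difference was -0.85 (standard error 0.46), or -0.93 (standard error 0.47) without both rats numbered 4. miR-653* had 15, 9, 11 and 19 reads in Control rats 1 to 4 and 4, 16, 10 and 6 reads in AA-treated rats 1 to 4. Its means were 14.8 ± 6.18 and 7.93 ± 3.90 normalized counts (SD, n = 4 each). The fitted log2 difference was -0.86 (standard error 0.45), or -0.37 (standard error 0.43) without both rats numbered 4. The groups overlapped for both star arms, and AA-treated rat 2 was the highest of its group for both.

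All 4 rows thus had lower means in the AA-treated kidneys, and the direction was the same with the other scalings tried. Of the 4, only miR-653 was called lower, with an adjusted p under 0.05 in edgeR's quasi-likelihood test and a fold change over 1.5, in a comparison where 20 of 620 miRNAs (3.23%) were called lower. Only miR-653 had all 4 AA-treated rats below all 4 Control rats, as did 41 of the 620 miRNAs (6.61%). The pair was put forward with this comparison known, so nothing is read from these counts. miR-489 was on the other side of the threshold from miR-653, but their log2 fold changes differed by only 0.13, less than either standard error. With DESeq2, limma-voom or robust moderation in edgeR, or without AA-treated rat 3, miR-489 was called lower too. The difference between the 2 miRNAs in response was not tested.

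**Figure D2:**
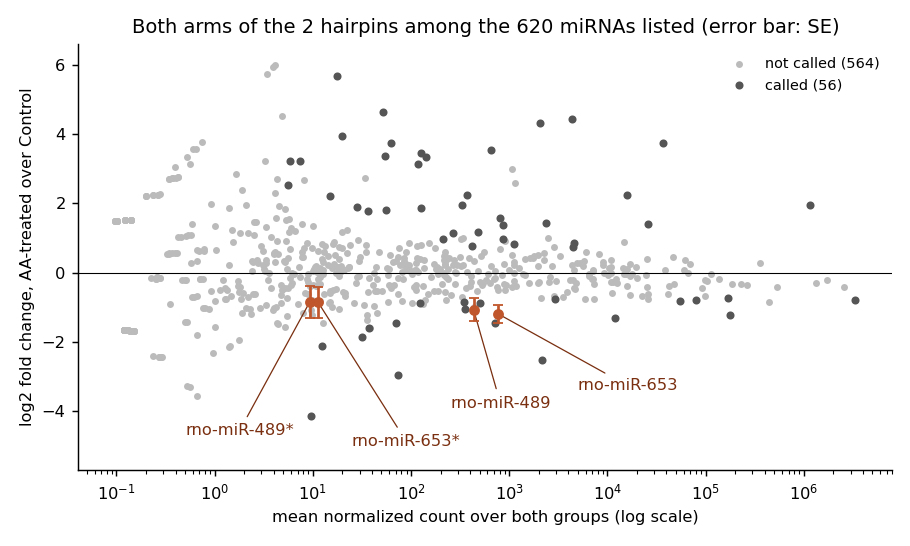
Log2 fold change of AA-treated over Control rats against the mean normalized count on a log axis for the 620 miRNAs listed, with called miRNAs in dark grey and the 4 rows of the pair in orange with their standard errors. The main arms miR-489 and miR-653 sit at -1.07 and -1.19 and the star arms at -0.85 and -0.86, inside the spread of miRNAs with few counts.

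The amount of miR-653 relative to miR-489 is a ratio of 2 counts within a library and does not depend on the size factor. In Control rats 1 to 4, the ratio was 1.82, 1.98, 1.63 and 1.90, a mean of 1.83 ± 0.15 (SD, n = 4). In AA-treated rats 1 to 4, it was 2.56, 1.15, 1.30 and 2.64, a mean of 1.91 ± 0.80 (SD, n = 4). The group means were close, but none of the 4 AA-treated rats lay within the Control range. AA-treated rats 1 and 4 were above it, and AA-treated rats 2 and 3 were below it. The 95% Wilson interval was 2.14 to 3.07 in AA-treated rat 1 and 2.26 to 3.08 in AA-treated rat 4, above the largest Control ratio. It was 1.00 to 1.32 in AA-treated rat 2 and 1.15 to 1.47 in AA-treated rat 3, below the smallest Control ratio. The largest and smallest Control ratios had intervals of their own, 1.76 to 2.24 in Control rat 2 and 1.46 to 1.81 in Control rat 3. These overlapped the intervals of AA-treated rats 1 and 3 but not those of AA-treated rats 2 and 4. The intervals cover counting error at most, and they may be too narrow, since PCR reads are not independent molecules. On the log2 scale the SD of the ratio was 0.12 in Control kidneys and 0.63 in AA-treated kidneys, a difference in spread that was not tested.

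The share of reads on the star arm describes how the reads of a hairpin were divided between its arms, and processing itself was not measured. Over all 8 rats, miR-489* made up 76 of 3468 reads of its hairpin (2.19%) and miR-653* made up 90 of 6088 (1.48%). Over the 119 hairpins with both names listed and at least 1000 counts, the median star share was 1.21%, and 75 of them had a share at or below that of miR-489*. The miR-489* share ranged from 0.836% to 3.40% in Control kidneys and from 1.48% to 3.32% in AA-treated kidneys. The miR-653* share ranged from 1.15% to 1.58% in Control kidneys and from 0.937% to 3.55% in AA-treated kidneys. The highest value was that of AA-treated rat 2, with a 95% Wilson interval of 2.20% to 5.68%, and the other 3 AA-treated rats were at or below 1.62%. The main arm was thus the same in every rat for both hairpins, and the star shares of the groups overlapped.

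**Figure D3:**
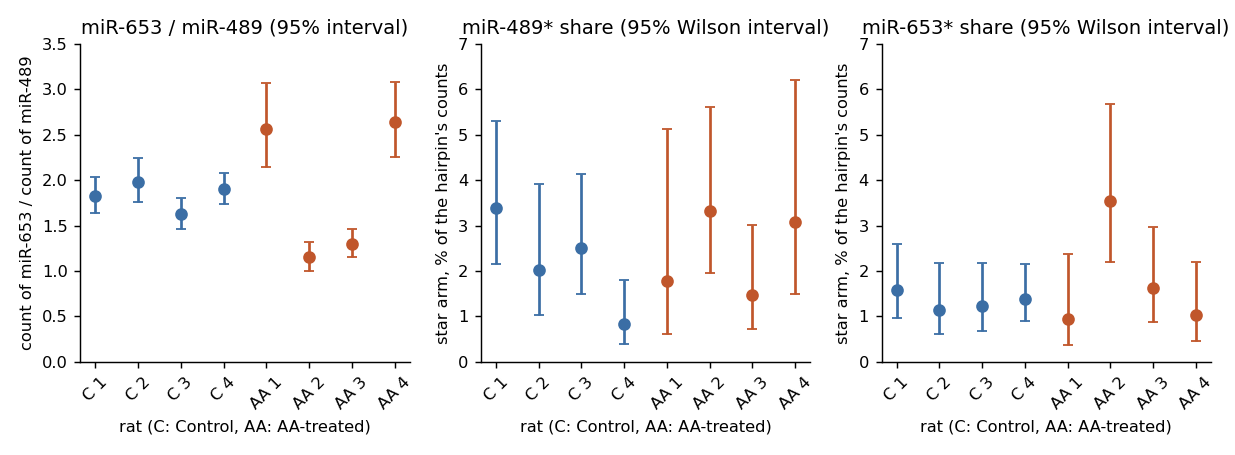
The ratio of miR-653 to miR-489 reads (left) and the star arm's percent of the reads of each hairpin (middle, right) in the 8 rats, with 95% Wilson intervals that cover counting error at most. The Control ratios lie between 1.63 and 1.98, AA-treated rats 1 and 4 at 2.56 and 2.64 and AA-treated rats 2 and 3 at 1.15 and 1.30.

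The pair was next examined among the rats of a group. After the group means were removed, log2 normalized counts of miR-489 and miR-653 had a Pearson correlation of 0.58 (exact permutation test within groups, two-sided, p = 0.142, n = 8) and a Spearman correlation of 0.21 (exact permutation test, p = 0.693, n = 8), the only relation tested. Without both rats numbered 4, the Pearson correlation was 0.41 (n = 6). Without Control rat 4 and AA-treated rat 3, the 2 rats farthest from the median for miR-489, it was -0.77 (n = 6). Those 2 rats were picked by these same values, which favors a fall in the correlation, so nothing is read from it. Control rat 4 was the highest Control rat for both miRNAs and AA-treated rat 3 the highest AA-treated rat for both. The other rats did not share an order, and AA-treated rat 2 was the lowest for miR-653 but the second highest of its group for miR-489.

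Of 10 other pairs of neighbouring miRNAs on a fixed list, 9 had both names in the table. The gap in log2 fold change within these 9 pairs ranged from 0.07 to 1.43 with a median of 0.23, and 2 pairs had a smaller gap than the 0.13 of miR-489 and miR-653. The SD of the log2 ratio among the Control rats ranged from 0.06 to 0.68, and 3 of the 9 pairs had a smaller one than the 0.12 of miR-489 and miR-653. Among the AA-treated rats it ranged from 0.08 to 0.77, and 7 of the 9 pairs were below the 0.63 of miR-489 and miR-653. The spread of the ratio was thus close to the median of these pairs, 0.13, in Control kidneys. In AA-treated kidneys it was above most of them, with a median of 0.28. In miR-221 and miR-222, both called higher, the SD was 0.11 with sodium chloride and 0.16 with AA. In miR-132 and miR-212, also both called higher, it was 0.61 and 0.08. Of the 9 pairs, miR-191 and miR-425 had the largest step up, from 0.12 to 0.77. That step rested on AA-treated rat 4, since without both rats numbered 4 their SD was 0.11 and 0.06. The SD for miR-489 and miR-653 was then 0.14 and 0.62, above 6 of the 9 pairs with sodium chloride and above all 9 with AA, which ranged from 0.06 to 0.38.

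**Figure D4:**
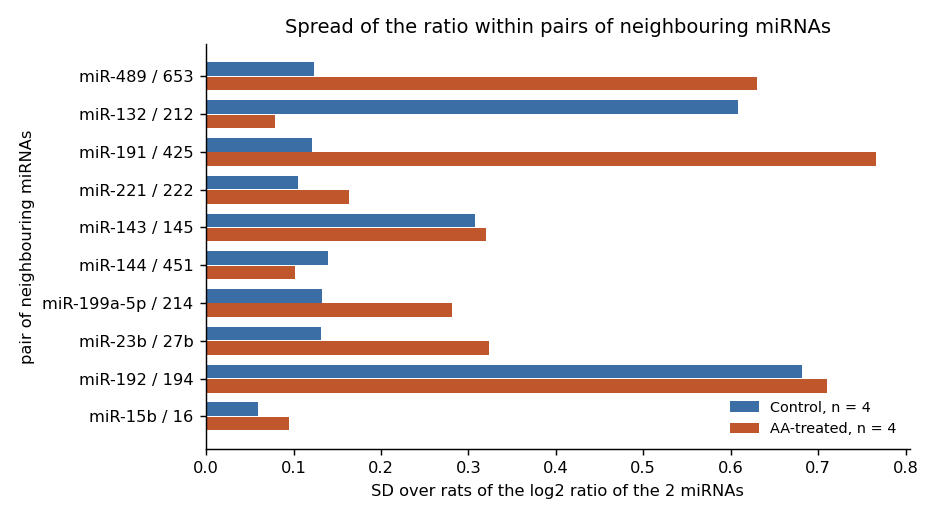
SD over the 4 rats of a group of the log2 ratio of 2 neighbouring miRNAs, for miR-489 and miR-653 and for 9 other pairs, with blue bars for Control and orange bars for AA-treated rats. The pair of miR-489 and miR-653 goes from 0.12 to 0.63, and miR-191 and miR-425 from 0.12 to 0.77, or to 0.06 without AA-treated rat 4.

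In level, miR-653 ranked 122nd and miR-489 149th among the 620 miRNAs of the Control rats, and 160th and 184th in AA-treated kidneys. The ranks of the star arms went from 334 to 391 for miR-653* and from 349 to 405 for miR-489*. Above miR-653 came miR-379, miR-301a and miR-193, at 1112 to 1218 normalized counts in Control kidneys, and below it miR-200b*, miR-135a and miR-184, at 1047 to 1069. Around miR-489 stood miR-342-3p, miR-139-5p and miR-223 above, and miR-139-3p, mir-322* and miR-200a* below, at 552 to 601 normalized counts. Each of these neighbours differed from the member by less than the larger SD of the 2, so that the order was not fixed by these rats. Both members varied more among the Control rats than most miRNAs, with a coefficient of variation of 33.0% for miR-489 and 35.9% for miR-653 against a median of 20.7% over 370 miRNAs with a mean of at least 10 normalized counts. This rested on Control rat 4, and without it the values were 11.4% and 8.10%, below a median of 12.9%. Among the AA-treated rats it was 46.9% for miR-489 and 22.4% for miR-653, against a median of 26.1%, and without AA-treated rat 4 it was 44.2% and 27.5% against 18.1%.

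The miRNAs most like each member were ranked by the correlation of log2 normalized counts after removal of the group means, over the 8 rats and among 369 other miRNAs. For miR-653 these were miR-378*, miR-30a*, miR-26b, miR-7b and miR-26a, with r from 0.92 to 0.97. For miR-489 they were mir-485*, miR-181c, miR-653*, miR-196b* and miR-30e*, with r from 0.83 to 0.96. miR-653* was thus the third closest to miR-489, whereas miR-653 itself was the 32nd, and miR-489 was the 68th for miR-653. Without removal of the group means, miR-26b, miR-26a, miR-3545-3p, miR-30e* and miR-125b* came first for miR-653, with r from 0.95 to 0.98, and miR-181c, mir-485*, miR-30e*, miR-653* and miR-3545-3p for miR-489, with r from 0.88 to 0.94. Without both rats numbered 4, only 1 of the 5 closest after removal of the group means stayed among the 5 closest for each member, miR-30a* for miR-653 and miR-181c for miR-489. These are the largest of many values over 8 rats that share their library and scaling, and they are given as a description.

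In a piece of whole kidney, fewer cells of a type and less of a miRNA per cell cannot be told apart, so lists of cell type markers were set beside the pair. Of 14 miRNAs of the nephron tubule epithelium, 1 was called lower (miR-204, log2 fold change -0.86, standard error 0.24), none was called higher, and 12 had a negative log2 fold change, with a median of -0.32 against 0.05 over all 620. All 14 were detected, and their summed level was 3233000 to 4317400 normalized counts in Control kidneys and 2387100 to 3319700 in AA-treated kidneys. The sum weighs the 14 unevenly, since miR-30a alone had means of 1850200 in Control and 1588700 in AA-treated kidneys, the largest part of it. Control rat 4, the highest rat for miR-653 and miR-489, was also the highest for this sum, through miR-192, which had 1124300 normalized counts there against 328820 to 454740 in the other Control rats. Without miR-192 the sum of Control rat 4 was 3193100 and that of Control rat 1 was 3166100. Within groups, the log2 sum had a correlation of 0.88 with miR-653 and of 0.57 with miR-489 over the 8 rats, or of 0.60 and 0.52 without miR-192 and 0.96 and 0.19 without both rats numbered 4, as a description. The sums of the neuroendocrine and endothelial lists had a correlation with miR-653 of 0.79 and 0.72, so that the tubule list was not alone in this. Per 1000000 tubule counts of the same rat, miR-653 was 292 ± 60.6 in the Control and 165 ± 22.0 in AA-treated kidneys (SD, n = 4 each), and the lowest Control rat at 255 stayed above the highest AA-treated rat at 187. By the same measure miR-489 was 159.5 ± 29.8 and 98.0 ± 39.1 (SD, n = 4 each), with AA-treated rat 3 at 139 above Control rat 2 at 132. On this scale, the AA-treated mean was 56.5% of the Control mean for miR-653 and 61.5% for miR-489. Without both rats numbered 4 it was 60.2% and 73.6%, and with miR-192 left out of the sum 53.1% and 57.3%.

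**Figure D5:**
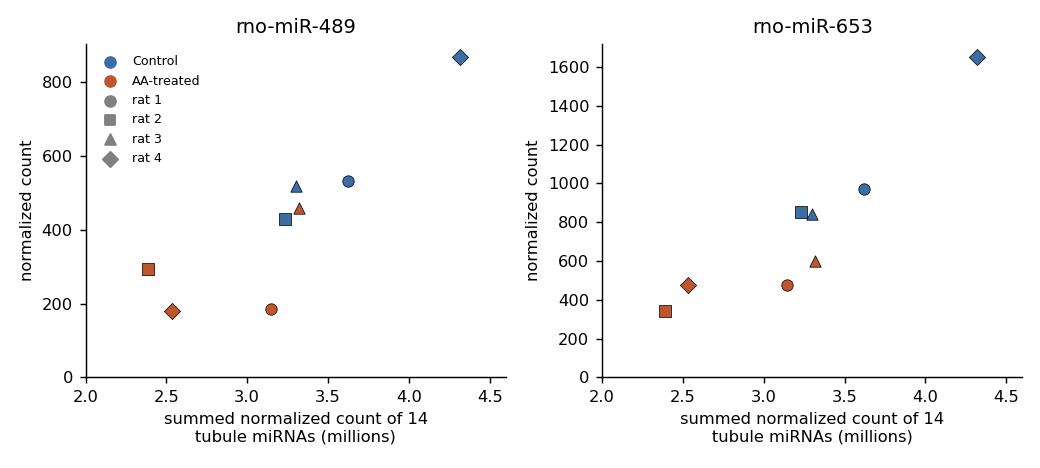
Normalized count of miR-489 (left) and miR-653 (right) against the summed normalized count of 14 tubule miRNAs divided by 1000000, with blue for Control rats, orange for AA-treated rats and a marker shape for each rat number. Control rat 4 is at the upper right of both panels, and at a similar tubule sum AA-treated rats 1 and 3 have less miR-653 than Control rats 2 and 3.

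Of 7 leukocyte miRNAs, 6 were listed and detected, 3 were called higher (miR-142-3p, miR-223 and miR-146b) and none was called lower. Their summed level was 37014 to 49304 in Control kidneys and 61042 to 111400 in AA-treated kidneys, without overlap, and within groups it had a correlation of -0.84 with miR-489 and of -0.43 with miR-653. Of 5 miRNAs of fibroblasts and smooth muscle and 2 of the endothelium, none was called in either direction. The sum of the first list was 2559000 to 3549700 against 1973100 to 2676500 with AA, although the median log2 fold change of its members was 0.43, because miR-143 (log2 fold change -0.41) held most of the counts. The endothelial sum was 124110 to 164000 against 88876 to 137260. The 4 skeletal muscle miRNAs, listed because of the role of miR-489 in muscle, summed to only 499.7 to 840.2 normalized counts in Control kidneys and 446 to 624 in AA-treated kidneys, none was called, and Control rat 4 had the lowest Control sum. Of 4 neuroendocrine miRNAs, miR-375 was called lower, with means of 3653 in Control and 642 in AA-treated kidneys. miR-124 was called higher but lay near the floor, with means of 1.45 and 13.4 normalized counts. The sums of the list were 20535 to 25331 and 12279 to 17372 in the Control and AA-treated rats, and miR-7a and miR-9 held most of these counts. Of 3 red cell miRNAs 2 were listed, with sums of 6910 to 11910 in the Control and 2172 to 8116 in AA-treated kidneys, and neither these nor the liver miRNA miR-122 were called. For miR-122, the Control range of 60.4 to 735 had its top in Control rat 1. With AA, rat 2 alone reached 7519, while rats 1, 3 and 4 had 10.1, 42.4 and 16.3. That library also held the most miR-122* (236 normalized counts) and miR-205 (6373). AA-treated rats 1, 3 and 4 had 0 for miR-122* and 348, 618 and 594 for miR-205. The lowest miR-653 level and the lowest ratio of miR-653 to miR-489 came from AA-treated rat 2 as well. The bearing of this library on the spread of the ratio was not tested. The part of these cell types in the levels of miR-489 and miR-653 was not tested.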

How the data were processed

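Small RNA from the kidneys of 4 Control and 4 AA-treated rats was sequenced on the Illumina Genome Analyzer II. The authors masked adaptors, removed contaminated reads and assigned the rest to rat miRNAs of miRBase release 16 with miRanalyzer at its default settings, and the submitters' processing notes also name CASAVA 1.7. The values the authors deposited are raw whole-number read counts per mature miRNA, neither normalized nor pooled. The rule for reads that fit several miRNAs is not given in the sources used here. Groups and rat numbers came from the sample titles. The numbers were not taken as pairs.

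The 620 miRNAs were tested with edgeR 4.0.16 in R 4.3.3 (glmQLFit and glmQLFTest, median-of-ratios size factors, no covariate, Benjamini-Hochberg adjustment over all miRNAs). Calls needed both an adjusted p below 0.05 and group means that differed by more than 1.5 times. Correlations and log2 ratios of 2 miRNAs used log2 normalized counts with a pseudocount of 1. The ratio of miR-653 to miR-489 on the plain scale used reads, and the ratio to the tubule miRNAs normalized counts, both without a pseudocount. The fit was tested on simulated data made from the real means and depths. The spread among rats was set by a formula there and not taken from these data, so the fit was not tested at the spread seen here. Depth was 13412373 to 15616670 counts per rat, and rows with few counts, such as the star arms, are the least precise.

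The alternatives were TMM factors, total counts, DESeq2 1.42.0, limma-voom with limma 3.58.1, robust moderation, filters of 10 counts in sum or in 4 rats, fold thresholds of 2.0 or none, a replicate block, a pseudocount of 0.5, and fits without each single rat or without both numbered 4. The ratio to the tubule miRNAs, its form without miR-192 and the spreads and closest miRNAs without the rats numbered 4 were added after the data were seen. Named besides the members were miRNAs sharing a seed with one, the 5 closest in pattern, the 3 next above and below each in Control level, a list of neighbouring pairs, and marker miRNAs. For the star arms, with few counts, these rankings are not given. The members and lists were chosen with earlier results of these data known. Sequences and positions are from RefSeq tables of GRCr8, where all 4 rows were matched through the arms assumed for them. The file itself names no genome build. Folds were predicted with ViennaRNA 2.7.2, and the other steps ran in Python 3.11.15 (with numpy 2.4.6, pandas 2.3.3, scipy 1.17.1, and for figures matplotlib 3.10.9).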

Additional observations from a re-analysis of the deposited data

Results flagged for a closer look

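Control rat 4 stood apart from the other 3 Control rats for miR-653, with 1653 normalized counts against 843 to 971. The gap was 0.84 of the range of the group, above the 95% critical value of Dixon's test for 4 samples. The same rat stood apart when miR-653 was divided by the summed tubule miRNAs, at 383 per 1000000 tubule counts against 255 to 268 in the other Control rats, a gap of 0.90 of the range. For miR-489 it was also the highest Control rat, at 869.95, but the gap of 0.765 of the range was below the critical value. These were 2 of 20 groups of 4 values examined, where about 1 in 20 is flagged by chance, and the measures share their counts. Without Control rat 4, the log2 fold change of miR-653 was -0.92 and that of miR-489 was -0.82.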

How the results depend on the processing

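The log2 fold changes stayed negative under all alternatives run. With each rat left out in turn they ranged from -1.34 to -0.92 for miR-653, -1.42 to -0.82 for miR-489, -1.18 to -0.58 for miR-653* and -1.15 to -0.57 for miR-489*, and under the other alternatives from -1.19 to -0.73, -1.12 to -0.44, -0.87 to -0.37 and -0.93 to -0.58. Total counts moved the median of all miRNAs from 0.05 to 0.31, with miR-653 at -0.93 and miR-489 at -0.79. Divided by the tubule miRNAs and without both rats numbered 4, miR-489 was at -0.44. miR-653 was called under all 19 alternatives with a call, and miR-489 under 4: DESeq2, limma-voom and robust moderation, with 2 of the 4 rows called in each, and the fit without AA-treated rat 3. With each rat left out, 1 or 2 of the 4 rows and 40 to 62 of all 620 miRNAs were called. Under the other alternatives, 42 to 74 of all miRNAs were called. The group difference was known when the pair was chosen, so nothing is read from the calls of its rows. The star arms were called under none of these, and miR-489* did not reach the filter of 10 counts in 4 rats. Rats that share a number are separate animals, and their deviations from the group means correlated at -0.01, 0.14, 0.12 and 0.34 for numbers 1 to 4 over 370 miRNAs. Control rats 2, 3 and 4 each correlated best with the AA-treated rat of their own number, and Control rat 1 with AA-treated rat 2 (0.25). The value for number 4 was the largest of all combinations. Whether rats of a number shared a batch was not tested. With the replicate block, miR-653 was at -1.16 and miR-489 at -1.12, 1 of the 4 rows was called, and 74 of all miRNAs were called against 56 without it. The correlation of miR-489 with miR-653 over all 8 rats, which mixes in the group difference, was 0.85, with 0.74 to 0.92 when each rat was left out, and 0.58 after removal of the group means. The mean log2 ratio of miR-653 to miR-489 was 0.83 to 0.93 for Control and 0.64 to 1.04 for AA-treated rats when 1 of the group was left out. The reads of the star arms, 3 to 19 per rat, limit what can be seen of them.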
